A study of Mus musculus with 6 samples.

Results

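The mitosis and spindle genes are 48 named genes that encode mitotic kinases and cyclins, checkpoint and kinetochore proteins, mitotic kinesins, condensin subunits, anaphase regulators and cytokinesis factors. They were chosen by name and not by a cut on measured values, though earlier results of these data were known. Of the 48, 46 had a probe set annotated to that gene alone, among 22180 genes read in this way, and all 46 were bright enough to be among the 13308 genes tested. Ccnb1, which encodes cyclin B1, is named by no probe set of the annotation. Ncapg, a condensin subunit, shares its only probe set with the neighbouring annotation Lcorl, so neither has a value of its own here.

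The arrays measured RNA from mouse inner medullary collecting duct (IMCD) cells, an epithelial model of the last segment of the kidney tubule. All cells were stable lines made with a lentivirus whose bicistronic vector expresses GFP together with ILK, integrin-linked kinase, a scaffold protein that joins integrins to actin. In 3 samples the introduced ILK was wild type and in 3 it was the missense variant T173I, each sample being called a biological replicate and hybridised to 1 array. All 6 samples had EGF at 20 ng/ml for 15 minutes and 1 hour of further incubation before RNA extraction, so neither an unstimulated sample nor one without introduced ILK enters the comparison. The sources used here do not say how many lines each group holds. With 1 line per group, line and variant cannot be told apart, and p-values measure only the spread between these arrays. In bulk RNA, fewer dividing cells and less mitotic RNA per dividing cell cannot be told apart.

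Arrays had median log2 signals of 5.45 to 5.52, and T173I replicate 2 had the highest. T173I replicate 1 correlated with the wild-type arrays at 0.985 to 0.991 over the tested genes, replicate 3 at 0.977 to 0.983 and replicate 2 at 0.959 to 0.967. Of 13 collecting duct and epithelial markers, 12 were brighter than the filter on dim probe sets (log2 5.37), among them Epcam, Cdh1, Krt8, Krt18, Pax2 and Pax8. The water channel Aqp3 was below it. The vasopressin-regulated channel Aqp2, a defining product of principal cells, was at 6.07 ± 0.051 (SD, n = 3) in wild type, close to the filter. Krt8, Krt18, Krt19 and Hoxb7 were higher in T173I without overlap of the groups, and Gata3 was lower. Krt19 had means of 8.53 ± 0.32 in wild type and 10.15 ± 0.63 in T173I, and Gata3 of 7.08 ± 0.23 and 6.30 ± 0.18. The adjusted p of limma was 0.45 for both. Over all tested genes 15.2% had groups that did not overlap. The mean of 7 fibroblast markers was 5.03 to 5.21 on wild-type arrays and 5.04 to 5.14 on T173I arrays, with 2 of the 7 above the filter. None of 5 endothelial markers was above it. The leukocyte list had 3 of 5 members above it, with Ptprc and Cd3e below, and its mean was 5.59 to 5.91 on wild-type and 5.72 to 5.82 on T173I arrays. That mean joins opposite differences: Cd68, a lysosomal protein of macrophages, had a wild-type mean of 7.94 ± 0.42 and a T173I mean of 9.04 ± 0.62 (SD, n = 3 each), and Csf1r, a receptor of macrophages, had means of 6.77 ± 0.24 and 5.99 ± 0.50. In neither gene did the groups overlap, and limma's adjusted p was 0.45 for both. Their part in the results below was not tested. Of 4 proximal tubule markers 2 were just above it.

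Genes of this kind are transcribed late in the cell cycle. Their RNA builds up through G2, after the DREAM complex that silences them in resting cells has given way to B-Myb and FoxM1. It falls after division. The level of such RNA in a culture is therefore commonly read as a sign of how many cells are approaching or passing through mitosis. Many of their promoters carry a cell cycle genes homology region (CHR), the site to which the MuvB core binds, near the transcription start, and upstream of it CCAAT boxes, which bind the factor NF-Y.

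The mitosis and spindle genes had nearly the same RNA level in both groups. Differences, taken as T173I minus wild type in log2 units, ran from -0.38 (Spc25) to 0.44 (Anln), with a median of 0.024 over the 46 members against -0.011 over all genes tested. The median size of a difference, regardless of sign, was 0.075, a factor of 1.05, against 0.12 over all genes. In 44 of 46 members the 95% interval of limma's fit lay within 1.5-fold of no difference, where 75.8% of all tested genes had such an interval, and the 2 exceptions were Anln and Spc25. Among the 8078 tested genes at least as bright as the dimmest member, 73.8% had an interval within 1.5-fold of no difference. No member differed by as much as 1.5-fold, where 4.04% of all tested genes did. The median SD between arrays was 0.082 in wild type and 0.11 in T173I for the members, and 0.098 and 0.16 for all genes tested.

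**Figure D1:**
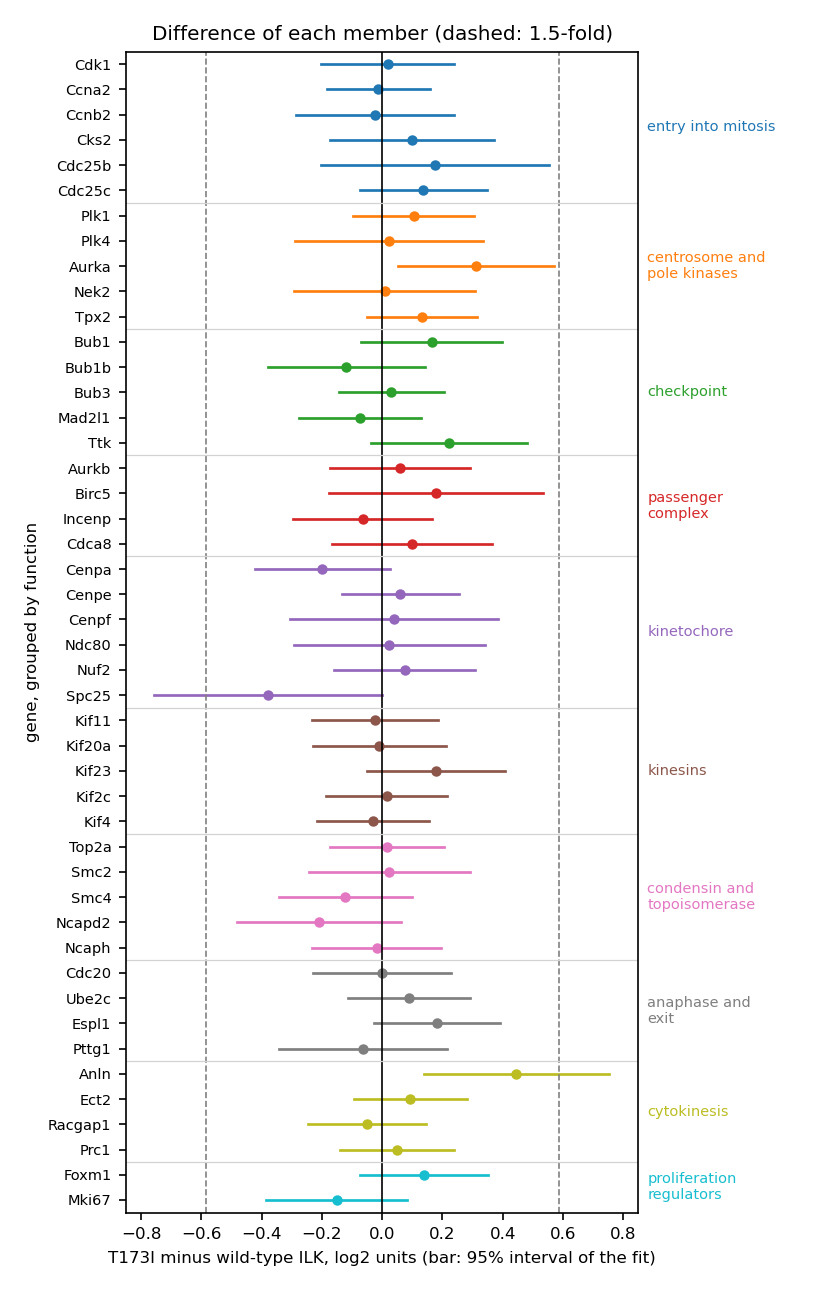
Difference of each of the 46 members, T173I minus wild-type ILK, in log2 units on the horizontal axis, with genes grouped and coloured by function; bars are 95% intervals of the limma fit and dashed lines mark 1.5-fold. Most points lie close to 0, and the bars of 44 members stay between the dashed lines, those of Anln and Spc25 being the exceptions.

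None of the 46 members passed limma's test at a Benjamini-Hochberg adjusted p under 0.05, and neither did any of the 13308 genes tested (percent of all tested genes called: 0). At an unadjusted p under 0.05 there were 3 members, 2 with a positive difference (Anln and Aurka) and 1 with a negative one (Spc25), where 10.2% of all tested genes reached it, 4.88% higher and 5.31% lower in T173I. The 3 of 46 members are no larger a share than that background. Without T173I replicate 1, 7 members and 22.1% of all tested genes reached it. The groups did not overlap in 6 members, 5 higher in T173I (Anln, Aurka, Tpx2, Bub1 and Espl1) and 1 lower (Cenpa), where 15.2% of all tested genes did so, 7.23% higher and 7.95% lower. Positive differences were found in 29 members and negative ones in 17, and 52.6% of all tested genes had a negative difference.

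The members were spread around their wild-type level in a different way on each T173I array. Relative to each gene's wild-type mean, the median of the 46 members was -0.038, 0.017 and 0.0074 on wild-type replicates 1, 2 and 3, and 0.028, -0.0085 and 0.085 on T173I replicates 1, 2 and 3. The medians of T173I replicates 1 and 3 thus lay above the wild-type range, replicate 3 further than replicate 1, and that of replicate 2 lay inside it. Over all tested genes the medians were 0, 0.0038 and -0.0059 on the wild-type arrays. On the T173I arrays they were 0.0088, -0.025 and -0.0099, each outside the wild-type range. The wild-type arrays enter the subtracted mean and the T173I arrays do not, so the wild-type range is narrowed by construction. Of the 46 members, 29, 22 and 33 were above their wild-type mean on T173I replicates 1, 2 and 3. On wild-type replicates 1, 2 and 3 the counts were 18, 31 and 24, so wild-type replicate 2 was close to T173I replicate 3. Of all 13308 tested genes, 6353 were above it on T173I replicate 3 and 6881 on wild-type replicate 2. T173I replicate 2, the array least like the wild-type arrays, was lowest of all 6 arrays for 14 members and highest for 10. On that array 17 members lay above the wild-type range, 17 below it and 12 within it, against 31.2%, 39.8% and 29% of all tested genes. T173I replicate 3 had 23 members above, 9 below and 14 within, against 29.7%, 33.8% and 36.6% of all tested genes. Replicate 1 had 15, 7 and 24, against 29.1%, 24.8% and 46.1%. Members above the wild-type range were thus most frequent on replicate 3, where all genes were not; this contrast was not tested.

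**Figure D2:**
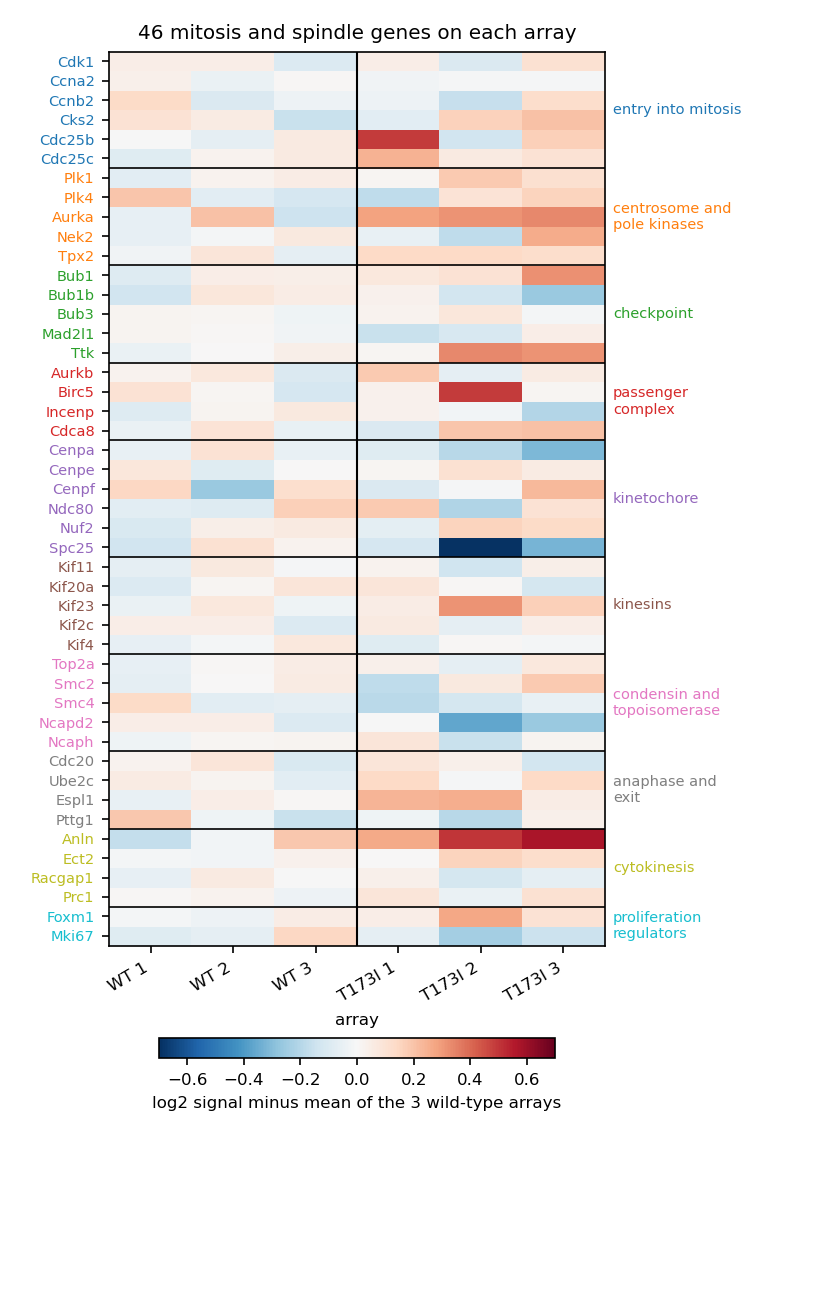
Heat map of the 46 members (rows, grouped by function) on the 6 arrays (columns, the 3 wild-type arrays to the left of the line), coloured by the log2 signal minus the mean of the 3 wild-type arrays. No T173I array is red or blue throughout. Among T173I arrays red is most frequent on replicate 3, where 33 of 46 members are above their wild-type mean, against 31 on wild-type replicate 2. Single genes stand out, such as Anln and Aurka on all 3 T173I arrays, Cdc25b on T173I replicate 1, and Birc5 (red) and Spc25 (blue) on replicate 2.

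The members with the most positive differences were Anln, Aurka and Ttk. Anln encodes anillin, the scaffold of the contractile ring that binds actin, myosin and septins. Its log2 signal was 10.21, 10.37 and 10.57 on the wild-type arrays and 10.65, 10.88 and 10.96 on the T173I arrays. All 3 T173I arrays lay above all 3 wild-type arrays, although replicate 1 exceeded the highest of them only slightly. The difference was 0.44 with a 95% interval of 0.14 to 0.75, a 1.36-fold higher signal, and limma's adjusted p was 0.45. Aurka, the kinase Aurora A that matures centrosomes and builds spindle poles, was at 9.07, 9.33 and 8.98 in wild type and 9.41, 9.44 and 9.46 in T173I. The T173I arrays were nearly equal and above a more scattered wild-type group, with a difference of 0.31 (95% interval 0.051 to 0.57, limma adjusted p = 0.47). Ttk, the checkpoint kinase Mps1, was at 9.16, 9.21 and 9.25 in wild type and 9.22, 9.54 and 9.52 in T173I. Its T173I replicate 1 lay within the wild-type range and the other two above it, and the difference was 0.22 (95% interval -0.037 to 0.48, limma adjusted p = 0.52).

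The most negative differences were those of Spc25, Ncapd2 and Cenpa. Spc25, a subunit of the NDC80 complex that holds microtubules at the kinetochore, was at 8.81, 9.05 and 8.97 in wild type and 8.83, 8.25 and 8.61 in T173I. The groups overlapped through T173I replicate 1, while replicates 2 and 3 lay below the wild-type range. The difference was -0.38, with a 95% interval of -0.76 to -0.00036 and a limma adjusted p of 0.49; without T173I replicate 2 it was -0.22 and without replicate 1 it was -0.51. Ncapd2, a regulatory subunit of condensin I, was at 9.72, 9.72 and 9.58 in wild type and 9.67, 9.31 and 9.41 in T173I, with a difference of -0.21 (95% interval -0.48 to 0.063, limma adjusted p = 0.54; -0.13 without T173I replicate 2). Here too replicate 1 lay among the wild-type arrays. Cenpa, the histone H3 variant that marks centromeres, was at 10.16, 10.32 and 10.17 in wild type and 10.13, 10.02 and 9.90 in T173I, with a difference of -0.20 (95% interval -0.42 to 0.027, limma adjusted p = 0.51). Its groups did not overlap, but the gap between the nearest arrays was narrow.

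**Figure D3:**
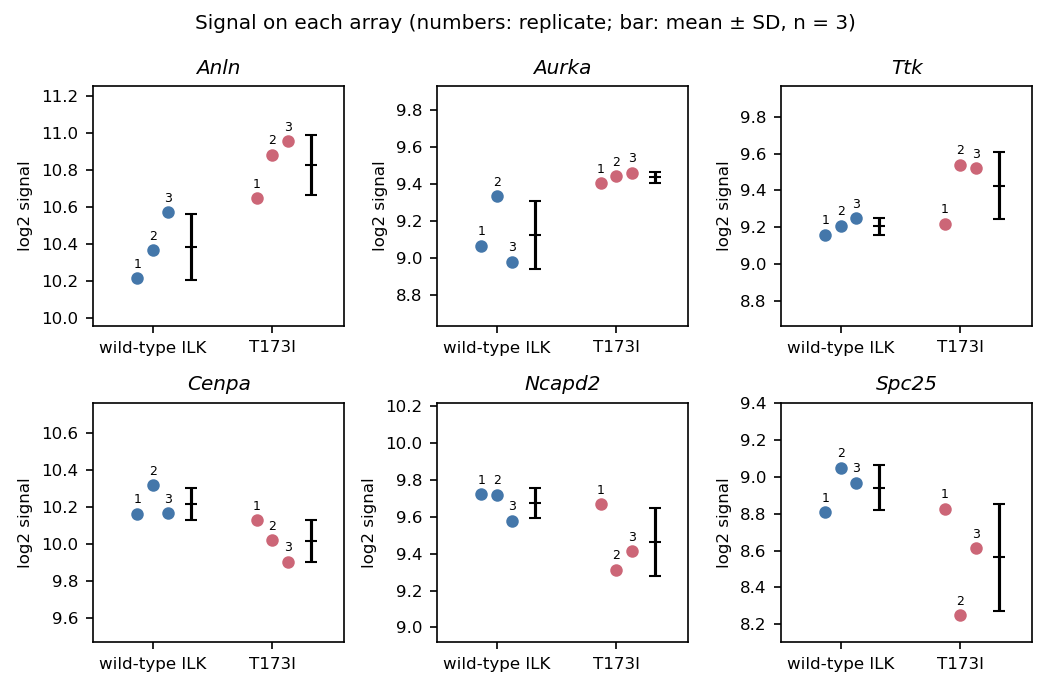
Log2 signal of the 3 members with the most positive and the 3 with the most negative differences on each array (points, numbered by replicate; blue wild-type ILK, red T173I), with the group mean and SD (n = 3) beside them. Every panel spans the same number of log2 units; Anln, Aurka and Cenpa show groups that do not overlap, and in Ttk, Ncapd2 and Spc25 T173I replicate 1 lies in the wild-type range.

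The promoters of these 6 members are shown because they hold the elements that mitotic genes are known to share, in genes whose differences point in both directions. Each is RefSeq sequence of assembly GRCm38.p6, from 250 bases before to 50 bases after an annotated transcription start, written along the gene's own strand. Capitals mark matches to the CHR core TTTGAA and to CCAAT on either strand, so that TTCAAA and ATTGG are the same motifs on the opposite strand.
Spc25, chr2:69206164-69206463, minus strand: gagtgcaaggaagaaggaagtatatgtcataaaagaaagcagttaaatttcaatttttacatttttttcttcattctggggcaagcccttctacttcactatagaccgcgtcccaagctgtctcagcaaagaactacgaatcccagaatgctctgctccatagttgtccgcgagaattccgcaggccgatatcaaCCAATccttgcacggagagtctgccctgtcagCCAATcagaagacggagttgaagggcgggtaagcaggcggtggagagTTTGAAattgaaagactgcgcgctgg
Ncapd2, chr6:125191537-125191836, minus strand: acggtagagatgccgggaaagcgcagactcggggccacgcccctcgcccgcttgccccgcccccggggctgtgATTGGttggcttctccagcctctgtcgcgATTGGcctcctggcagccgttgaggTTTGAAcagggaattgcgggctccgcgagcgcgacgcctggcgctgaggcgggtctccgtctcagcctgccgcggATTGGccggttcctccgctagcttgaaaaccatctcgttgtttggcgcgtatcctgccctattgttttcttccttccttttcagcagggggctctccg
Cenpa, chr5:30666636-30666935, plus strand: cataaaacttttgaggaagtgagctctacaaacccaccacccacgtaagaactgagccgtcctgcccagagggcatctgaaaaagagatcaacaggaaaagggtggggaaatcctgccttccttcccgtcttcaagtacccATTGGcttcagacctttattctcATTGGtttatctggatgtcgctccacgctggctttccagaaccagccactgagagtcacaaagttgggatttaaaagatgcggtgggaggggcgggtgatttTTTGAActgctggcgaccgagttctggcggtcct
Anln, chr9:22389157-22389456, minus strand: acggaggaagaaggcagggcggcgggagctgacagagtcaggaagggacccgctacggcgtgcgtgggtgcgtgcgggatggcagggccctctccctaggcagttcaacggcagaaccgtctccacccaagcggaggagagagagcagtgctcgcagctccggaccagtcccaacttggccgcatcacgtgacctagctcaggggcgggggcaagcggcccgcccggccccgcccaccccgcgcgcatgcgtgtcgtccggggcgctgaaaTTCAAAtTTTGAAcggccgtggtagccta
Aurka, chr2:172370521-172370820, minus strand: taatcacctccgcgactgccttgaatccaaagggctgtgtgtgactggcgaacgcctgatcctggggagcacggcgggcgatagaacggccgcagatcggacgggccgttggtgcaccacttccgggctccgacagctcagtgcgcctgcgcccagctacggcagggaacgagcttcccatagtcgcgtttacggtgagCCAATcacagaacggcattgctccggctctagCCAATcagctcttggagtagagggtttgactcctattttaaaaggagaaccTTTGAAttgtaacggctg
Ttk, chr9:83834439-83834738, plus strand: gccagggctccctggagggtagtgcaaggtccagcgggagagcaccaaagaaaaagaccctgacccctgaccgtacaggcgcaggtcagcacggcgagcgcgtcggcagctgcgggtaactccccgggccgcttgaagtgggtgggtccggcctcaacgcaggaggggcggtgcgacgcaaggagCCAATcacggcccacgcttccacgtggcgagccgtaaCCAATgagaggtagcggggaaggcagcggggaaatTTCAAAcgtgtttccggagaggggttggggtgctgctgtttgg

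All 6 promoters held a TTTGAA match. Counting the start site as 0, the first base of the match lay at 24 in Spc25, 16 in Cenpa, 32 in Aurka and 7 in Ttk. Anln had matches at 21 and 28, on opposite strands and separated by a single base, and its window held no CCAAT. In Ncapd2 the match lay at -123, well upstream of the start, among 3 CCAAT matches on the opposite strand. Spc25, Aurka and Ttk each had a pair of CCAAT matches at similar places, at -55 and -23 in Spc25, -51 and -19 in Aurka and -65 and -28 in Ttk. Cenpa had its pair further upstream, at -109 and -86.

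Promoter sequence was given for 40 of the 48 members. TTTGAA was found on either strand in 28 of these 40 genes (70%), against 13.7% of the 10449 tested genes with a promoter sequence. A match with its first base within 50 bases of the start was found in 25 members (62.5%) and in 3.61% of tested genes. CCAAT was found in 31 members (77.5%) and in 42% of tested genes, and both motifs in 25 (62.5%) and 5.58%. Among 78 other mitosis genes with a promoter sequence, 42.3% held TTTGAA, and among 30 DNA replication genes 13.3%, the level of tested genes as a whole. The 12 members without TTTGAA in this window were Ccnb1, Cks2, Cdc25b, Plk4, Nek2, Bub1, Mad2l1, Birc5, Cenpe, Nuf2, Ncaph and Pttg1. The median difference was 0.024 over the 27 measured members with TTTGAA and 0.060 over the 11 without it. These letters are a description of the sequence, not of binding, and a gene with several annotated starts was counted once if any of them matched.

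**Figure D4:**
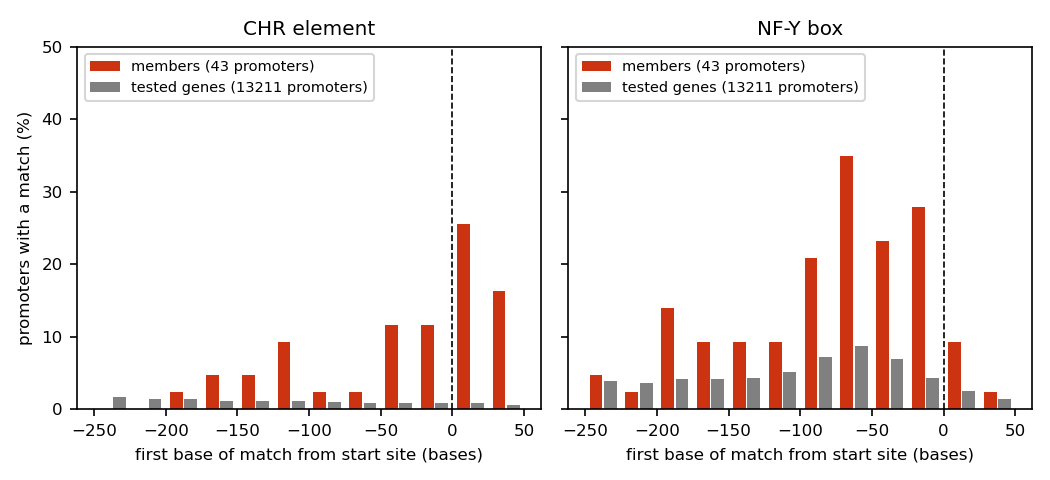
Share of promoters (vertical axis, percent) with a match to the CHR core (left) or to the CCAAT box that NF-Y binds (right) whose first base lies in each 25-base bin of distance from the start site (horizontal axis, bases; dashed line, the start), for 43 promoters of members (red) and 13211 promoters of tested genes (grey). CHR matches of members are most frequent in the bin from 0 to 24, in 25.6% of promoters against 0.818% of those of tested genes; the CCAAT matches of members peak from -75 to -51, at 34.9% against 8.68%.

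Among the genes that drive entry into mitosis, none of the 6 measured members stood apart. Cdk1, the kinase that triggers mitosis, was at 10.55, 10.55 and 10.41 in wild type and 10.55, 10.40 and 10.61 in T173I, a difference of 0.018 with an interval of -0.20 to 0.24. Its sign turned without wild-type replicate 3 (-0.031) or T173I replicate 3 (-0.025). Ccna2, cyclin A2, had a difference of -0.013 and an interval of -0.19 to 0.16, and Ccnb2, cyclin B2, one of -0.025 and -0.29 to 0.24. The interval of Ccnb2, the widest of the 3, spans 0.82 to 1.18 times the wild-type level. Cdc25b and Cdc25c are phosphatases that switch Cdk1 on. Cdc25b was at 8.42, 8.36 and 8.49 in wild type and 8.91, 8.29 and 8.59 in T173I, so that the T173I arrays lay on both sides of the wild-type range. Its difference of 0.17 (limma adjusted p = 0.69) was 0.017 without T173I replicate 1 and 0.33 without replicate 2. Cdc25c was at 8.79, 8.90 and 8.94 in wild type and 9.12, 8.94 and 8.98 in T173I, with a difference of 0.14 (limma adjusted p = 0.58; 0.082 without T173I replicate 1). Cks2, a small subunit that docks Cdk1 to its substrates, had a difference of 0.098. It is listed for 4 probe sets, 3 of which had equal values on every array, and the fourth, dimmer one gave 0.12.

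The kinases of centrosomes and spindle poles, with the Aurora A activator Tpx2, had positive differences in 5 of 5 members, the median being 0.10. Tpx2 brings Aurora A to spindle microtubules. It was at 10.50, 10.60 and 10.46 in wild type and 10.66, 10.66 and 10.64 in T173I, a narrow T173I group above the wild-type arrays. The difference was 0.13 with an interval of -0.052 to 0.32 and a limma adjusted p of 0.56. T173I replicates 1 and 2 had exactly equal values for Tpx2, which lowers the spread the test sees. Among the 46 members, 8 had an equal pair of arrays of any group, as did 2639 of all 13308 tested genes. Besides Tpx2, only Cdk1 and Ube2c had a pair within a group. In Ccnb2, Kif20a, Kif4, Ncaph and Pttg1 the pair joined a wild-type and a T173I array, which does not lower the spread within a group. Plk1, the Polo kinase of centrosomes and kinetochores, had a difference of 0.10. Plk4, which starts centriole duplication, had 0.024, and Nek2, which separates centrosomes, 0.0088.

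Of the 5 spindle assembly checkpoint genes, 3 had positive and 2 negative differences. Bub1, a kinase of unattached kinetochores, was at 9.63, 9.76 and 9.76 in wild type and 9.79, 9.82 and 10.03 in T173I. The groups did not overlap, the nearest arrays being almost equal, and the difference was 0.16 (95% interval -0.070 to 0.40, limma adjusted p = 0.56; 0.087 without T173I replicate 3). Bub1b, which encodes BubR1 of the inhibitory checkpoint complex, had the opposite sign, -0.12, with an interval of -0.38 to 0.14. Mad2l1, the core inhibitor of Cdc20, had -0.074, and Bub3, the partner of both Bub1 and BubR1, 0.030.

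The chromosomal passenger complex, which corrects faulty attachments and then moves to the midzone, had 3 positive and 1 negative difference. Birc5, survivin, was at 8.87, 8.78 and 8.65 in wild type and 8.80, 9.26 and 8.78 in T173I. Only replicate 2 of the T173I group stood above the wild-type range, and the difference of 0.18 (limma adjusted p = 0.66) was 0.021 without that array. Cdca8, borealin, was at 9.12, 9.26 and 9.11 in wild type and 9.06, 9.36 and 9.37 in T173I, with a difference of 0.098 (limma adjusted p = 0.74). That difference was 0.20, 0.050 and 0.045 without T173I replicates 1, 2 and 3 in turn. The kinase of the complex, Aurkb, had a difference of 0.060 with an interval of -0.17 to 0.29. Incenp, its scaffold, had -0.065.

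The kinetochore genes had differences on both sides of 0. Spc25 and Cenpa, described above, had negative differences, and the other 4 members had positive ones of at most 0.075. Ndc80 and Nuf2, which form the microtubule-binding arm of the complex to which Spc25 belongs, had differences of 0.024 (interval -0.29 to 0.34) and 0.075 (interval -0.16 to 0.31). Spc24, the direct partner of Spc25 and not a listed member, had -0.20 with an interval of -0.69 to 0.29 and a limma adjusted p of 0.72. Its T173I replicate 1 was the highest of all arrays, while T173I replicates 2 and 3 lay below the wild-type range. Whether Spc25 differed from its partners was not tested. Cenpe, a kinetochore motor, and Cenpf, a large protein of the outer kinetochore, had 0.060 and 0.039.

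Among 5 mitotic kinesins, differences ran from -0.030 to 0.18. Kif23, the motor of the centralspindlin complex at the midzone, was at 10.35, 10.47 and 10.37 in wild type and 10.45, 10.71 and 10.56 in T173I, a difference of 0.18 (95% interval -0.050 to 0.41, limma adjusted p = 0.54; 0.11 without T173I replicate 2). Its T173I replicate 1 lay in the wild-type range. Kif4, a chromosome-bound motor, was at 8.81, 8.85 and 8.94 in wild type and 8.79, 8.88 and 8.85 in T173I, with a difference of -0.030 (limma adjusted p = 0.90). Kif11, Eg5, which pushes spindle poles apart, had -0.024, Kif20a, a motor of cytokinesis, -0.0092, and Kif2c, a microtubule depolymerase, 0.015.

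The condensin subunits and topoisomerase II alpha, which compact and disentangle chromosomes, had 3 negative and 2 positive differences. Smc4, an ATPase common to both condensins, was at 11.98, 11.78 and 11.78 in wild type and 11.65, 11.72 and 11.79 in T173I, with a difference of -0.12 (95% interval -0.34 to 0.097, limma adjusted p = 0.63; -0.055 without wild-type replicate 1). Its partner ATPase Smc2 had 0.024, and Ncaph, the kleisin that closes the condensin I ring, -0.018. Top2a was at 10.77, 10.84 and 10.88 in wild type and 10.87, 10.77 and 10.90 in T173I, a difference of 0.015 on the probe set annotated to it alone, whose sign turned without wild-type replicate 1 (-0.014) or T173I replicate 3 (-0.013). The probe set that Ncapg shares with Lcorl was at 9.51, 9.63 and 9.60 in wild type and 9.54, 9.94 and 9.77 in T173I, with a difference of 0.17 (exact two-sided permutation p = 0.3, where 0.1 is the smallest possible).

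The genes of anaphase and mitotic exit were balanced around 0. Espl1, separase, the protease that cuts cohesin, was at 7.84, 7.94 and 7.91 in wild type and 8.13, 8.15 and 7.95 in T173I. The groups did not overlap, though T173I replicate 3 exceeded the highest wild-type array by very little, and the difference was 0.18 (95% interval -0.029 to 0.39, limma adjusted p = 0.52). Ube2c, the ubiquitin-conjugating enzyme of the anaphase-promoting complex, was at 10.06, 10.02 and 9.93 in wild type and 10.14, 10.00 and 10.14 in T173I, with a difference of 0.088 (limma adjusted p = 0.70; 0.14 without T173I replicate 2 and 0.051 without wild-type replicate 3). Cdc20, the activator of that complex, had -0.0010 with an interval of -0.23 to 0.23, the smallest difference of all members. Pttg1, securin, the inhibitor of separase, had -0.063.

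In cytokinesis, Anln had the largest difference of the 4 members, and whether it differed from the others was not tested. Ect2, the exchange factor that activates RhoA at the cell equator, was at 12.46, 12.46 and 12.51 in wild type and 12.48, 12.63 and 12.60 in T173I, a difference of 0.093 (95% interval -0.095 to 0.28, limma adjusted p = 0.67). Racgap1, the partner of Kif23 in centralspindlin, had -0.049 with an interval of -0.24 to 0.15. Prc1, which bundles midzone microtubules, had 0.049 with an interval of -0.14 to 0.24. Cit, citron kinase, a partner of anillin outside the listed members, had 0.034.

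Foxm1, the transcription factor that activates late cell cycle genes, was at 9.25, 9.23 and 9.31 in wild type and 9.31, 9.53 and 9.36 in T173I. The difference was 0.14 with an interval of -0.075 to 0.35 and a limma adjusted p of 0.58, and was 0.072 without T173I replicate 2. Mki67, which coats mitotic chromosomes and is the common marker of cycling cells, was at 11.09, 11.11 and 11.32 in wild type and 11.11, 10.94 and 11.02 in T173I. Its difference had the other sign, -0.15, with an interval of -0.39 to 0.083 and a limma adjusted p of 0.58, and was -0.078 without wild-type replicate 3. In both genes the groups overlapped.

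A wider list of 95 other mitosis genes, covering the constitutive centromere, further kinesins, cohesin and the anaphase-promoting complex, had 89 tested genes. Of these, 44 had positive and 45 (50.6%) negative differences, with a median of -0.00029, where 52.6% of all tested genes were negative. None passed limma's adjusted threshold, and 8 reached an unadjusted p under 0.05, 4 in each direction. Over all tested genes 10.2% reached it, 4.88% higher and 5.31% lower in T173I. The 4 with positive differences were Cenpq (0.36) and Cenpi (0.24), both of the centromere, Kif14 (0.26), a motor of cytokinesis, and Ska1 (0.25), of the kinetochore SKA complex. The 4 with negative differences were Cenpp (-0.43), another centromere protein, Cdc26 (-0.24) and Anapc5 (-0.21), subunits of the anaphase-promoting complex, and Mad1l1 (-0.19), which recruits Mad2. Intervals within 1.5-fold were found for 77 of the 89 (86.5%), against 75.8% of all tested genes.

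Of 14 genes for the DREAM and MuvB regulators of these promoters, 2 reached an unadjusted p under 0.05, where 10.2% of all tested genes reached it. E2f4, the E2F factor of DREAM, was at 10.07, 10.17 and 10.01 in wild type and 10.28, 10.72 and 10.41 in T173I, a difference of 0.39 with a limma adjusted p of 0.45. E2f8, a repressing E2F that is itself a cell cycle target, was at 10.42, 10.58 and 10.53 in wild type and 10.63, 11.11 and 10.84 in T173I, with 0.35 and 0.48. In both genes the T173I arrays lay above the wild-type arrays, as in 7.23% of all tested genes, and replicate 2 was the highest. In 1 of the 14, Tfdp1, they lay below, as in 7.95% of all tested genes. Mybl2, B-Myb, had 0.024, and the pocket proteins Rbl1 and Rbl2 had -0.22 and -0.073 (limma adjusted p = 0.64 and 0.89). Rbl1 was at 9.99, 10.06 and 10.08 in wild type and 10.09, 9.44 and 9.95 in T173I. Rbl2 was at 9.36, 9.31 and 9.35 in wild type and 9.57, 8.88 and 9.35 in T173I. For both, T173I replicate 2 was the lowest of all arrays and T173I replicate 1 the highest. Without an adjusted call, 8 of the 14 differences (57.1%) were negative, the median being -0.057, where 52.6% of all tested genes were negative.

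DNA replication genes, which are transcribed earlier in the cycle, were read on the same arrays. Of 36 tested genes 29 (80.6%) had negative differences, with a median of -0.18, where 52.6% of all tested genes were negative. An unadjusted p under 0.05 was reached by 5, all negative, where 10.2% of all tested genes reached it; none passed limma's adjusted threshold. The 4 with the smallest p were Mcm7 (-0.34), Mcm5 (-0.29), Rfc3 (-0.35) and Pole (-0.22), subunits of the replicative helicase, the clamp loader and a replicative polymerase. Relative to the wild-type mean, T173I replicates 1, 2 and 3 had medians of -0.021, -0.38 and -0.16 over the replication genes and 0.028, -0.0085 and 0.085 over the mitosis and spindle members. The difference between these lists was not tested. Both share their arrays, and the replication values rest on 2 of the 3 T173I arrays.

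**Figure D5:**
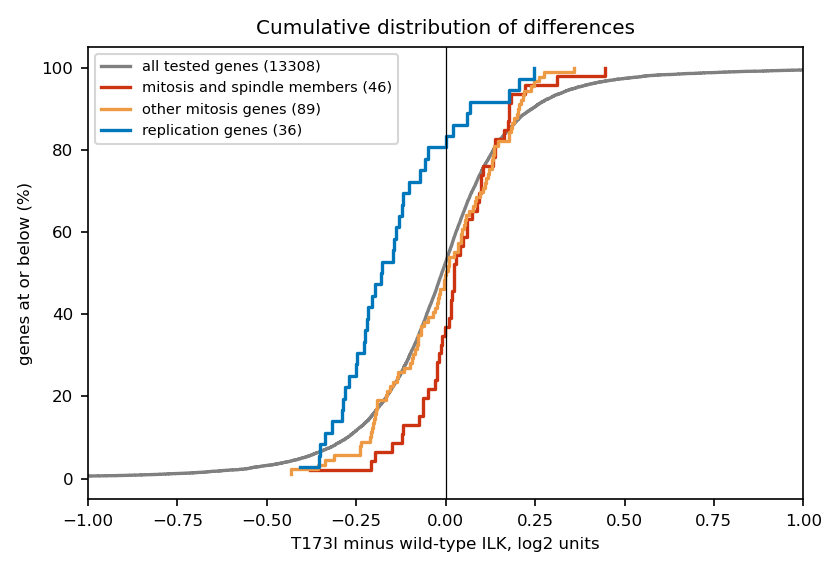
Cumulative distribution of the difference, T173I minus wild-type ILK in log2 units (horizontal axis, cut at -1 and 1), as the percent of genes at or below each value, for 46 mitosis and spindle members (red), 89 other mitosis genes (orange), 36 replication genes (blue) and all 13308 tested genes (grey). The curve of the members is steep and crosses its midpoint at 0.024, and that of the replication genes lies to the left, with a median of -0.18.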

How the data were processed

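Each of 6 RNA samples was read on 1 Affymetrix whole-transcript array. The deposited log2 signals of 41345 probe sets come from RMA, as the submitters' processing notes say. This method equalises the arrays' signal distributions and would hide a shift of most transcripts. Its version is not stated in the sources used here. Arrays carry no depth; their number limits precision.

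Genes were named from the 23521 probe sets with 1 symbol, taking a gene's brightest; the dimmest 40% of 22180 genes were left out. limma 3.58.1 (R 4.3.3; lmFit, eBayes, two-sided) was fitted to the other 13308, with Benjamini-Hochberg adjustment over all. In simulated arrays of 13308 genes it recovered 70% of 100 genes changed 2-fold and 96% of 100 changed 4-fold, with 11 false calls. The simulated noise was independent between genes, with no deviation of a whole array. Changes as small as those of the members were not simulated, so recovery at that size was not tested.

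The members and lists were chosen with earlier results of these data known. Array values are given for the 2 members of each functional group with the smallest p and any with an unadjusted p under 0.05, and promoters for the 3 most negative and 3 most positive of these; up to 8 other mitosis genes and 4 replication genes with the smallest p were named. Cdk1 and Top2a are listed members, and only the choice to give their array values was made after these were seen. Spc24, Cit and the DREAM genes were added after their values were seen. Deviations of same-numbered arrays correlated at 0.049, 0.067 and 0.048, so numbers were not treated as pairs. Alternatives covered the filter, prior, normalization, probe set rule, array weights, replicate block and each array left out.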

Additional observations from a re-analysis of the deposited data

Results flagged for a closer look

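The 2 probe sets annotated to both Top2a and Taf1d enter no comparison above, since their signal cannot be assigned to either gene. They carried a signal above the wild-type level. Probe set 17274247 was at 10.03, 9.87 and 9.56 on the wild-type arrays and 10.52, 12.02 and 10.77 on the T173I arrays, a difference of 1.28. Probe set 17291353 was at 10.30, 10.09 and 9.85 and at 10.67, 12.16 and 11.02, a difference of 1.20. On both, all T173I arrays lay above all wild-type arrays and replicate 2 was by far the highest (exact two-sided permutation p = 0.1 for each, the smallest possible). The probe set annotated to Top2a alone had a difference of 0.015. The one annotated to Taf1d alone was at 11.23, 11.34 and 11.05 in wild type and 11.32, 12.07 and 11.14 in T173I, a difference of 0.30 with overlapping groups and, again, the highest value on replicate 2 (limma adjusted p = 0.65). Which of the named genes the shared probe sets measure was not tested.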

How the results depend on the processing

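No member passed limma's adjusted threshold under any of the 13 alternatives, and no gene did, except without T173I replicate 1, where 156 genes passed, none of them a member (range over the arrays left out 0 to 156). The count of members at an unadjusted p under 0.05, 3 in the report, was 6 with array weights (Bub1, Ttk, Cenpa, Spc25, Ncapd2 and Anln), under which 21.5% of all tested genes reached it, and 1 to 7 when 1 array was left out, with Anln among them each time. It was 1 without wild-type replicate 1 or 3, where 5.03% and 8.08% of all tested genes reached it. Without T173I replicate 1 it was 7, where 22.1% of all tested genes did. The median difference of the members moved from 0.024 to 0.079 with array weights, and with 1 array left out it ran from 0.013 to 0.051 (0.013 without T173I replicate 3, 0.051 without T173I replicate 2 and 0.041 without wild-type replicate 1). The replicate block left 2 members (Aurka and Anln), with 11.3% of all tested genes at an unadjusted p under 0.05. It left 43 intervals within 1.5-fold and changed no call. Intervals within 1.5-fold numbered 41 to 44 of 46 under all alternatives, where 66.1% to 80.6% of all tested genes had such an interval. Negative differences numbered 14 to 22 of the 46. Of 286 values for the 22 members given array by array under the 13 alternatives, 281 kept their sign. With 1 array left out Cdk1 ranged from -0.031 to 0.076 and Top2a from -0.014 to 0.054; Kif4 ranged from -0.059 to 0.0055 when 1 array was left out, the latter without wild-type replicate 3. Adjusted p for Anln ran from 0.098 to 0.84. The median half-width of a member's interval was 0.23 log2 units, without adjustment for the number of genes tested. Differences smaller than that are below what these arrays resolve for a typical member. Larger ones were not thereby resolved, since Anln (0.44), Spc25 (-0.38) and Aurka (0.31) did not pass limma's adjusted threshold.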
